A study of Mus musculus with 24 samples.

Results

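The 10 genes described here mark the somatic cells that nurse or surround the germ line of the testis, and they were followed in libraries made from enriched germ cells. They are 5 genes of Sertoli cells (Sox9, Wt1, Clu, Cldn11 and Amhr2) and 5 genes of Leydig cells (Insl3, Star, Cyp17a1, Cyp11a1 and Hsd3b1). They were taken by symbol, through the mouse GENCODE annotation (GRCm38, the build of all coordinates given), from a table of raw counts for 55536 genes, and all 10 were found. The rule names symbols and uses no measured value.

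The study asked what the Argonaute proteins, best known as partners of small RNAs, do in male germ cells. Messenger RNA of pachytene/diplotene spermatocytes (cells in meiotic prophase) and of round spermatids (haploid cells after meiosis) was sequenced after the cells had been enriched from testis on a gradient of bovine serum albumin. All mice were males of 10 to 15 weeks on a C57BL/6J background and carried, on neither allele (Ago413+/+, wild-type), on 1 allele (Ago413+/-, heterozygous) or on both (Ago413-/-, null), a deletion on chromosome 4 that removes all of Ago1 and parts of Ago3 and Ago4. The deletion was made in the whole animal with a Sox2-cre deleter, so the Sertoli and Leydig cells of a null male carried it as well as the germ cells. Per the labels, testes of 2 to 5 mice were collected for a cell preparation, and the fractions were chosen for purity by microscopy and staining for SYCP3, a protein of meiotic chromosomes. The paper states that the pooled fractions still held other cells, with a lower range of purity for spermatocytes than for round spermatids. Without the 3 libraries that the labels call outliers, there were 4 wild-type, 3 heterozygous and 3 null libraries of spermatocytes and 3 wild-type, 4 heterozygous and 4 null libraries of round spermatids.

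Sertoli cells line the seminiferous tubule, hold the germ cells in pockets of their membrane, seal the tubule with tight junctions and feed the cells inside it. Leydig cells lie between the tubules and make testosterone from cholesterol under the control of luteinizing hormone. Neither cell type belongs in a purified germ cell fraction, although fragments of Sertoli cytoplasm cling to germ cells and single somatic cells can sediment with them. In bulk RNA a smaller number of cells of a type and less RNA in each of them cannot be told apart, and the same is true of a low level made by the germ cells themselves.

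Levels are given as CPM, the counts of a gene scaled to libraries of a common size, on one TMM scale for the 21 libraries, and where a group is listed its values follow the order of the replicate numbers. These are 1, 2, 4 and 5 for wild-type spermatocytes, 1, 2 and 4 for wild-type round spermatids and run from 1 upward elsewhere, since replicate 3 of both wild-type groups was labelled an outlier. The libraries held 12825105 to 29749058 counts, and 3 counts corresponded to at most 0.234 CPM, in the shallowest library. Ago1 had 0 counts in all 7 null libraries and 1.71 to 4.49 CPM in the 14 others, as the labels require. By germ cell markers the fractions differed in the direction of their names. In round spermatids 6 of 10 spermatocyte markers were called lower (11.7% of all genes) and 6 of 10 spermatid markers higher (15.9%), with 0 called the other way. The separation was partial, since Prm2, the most abundant spermatid marker, averaged 2461 CPM in spermatocytes and 10215 CPM in round spermatids. All 5 Sertoli and all 5 Leydig genes had at least 1 count in every library, with 3 Leydig values at 3 counts or fewer. All 10 passed the filter of each test.

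The windows upstream of 3 of the genes are shown because these 3 RefSeq starts fall on the first base of the gene in the annotation used. Each is given 5′ to 3′ on the gene's strand, over the 250 bases before the start in GRCm38.p6, with capitals for the letters that matched one of the motifs searched.
Amhr2 (chr15:102445117-102445366, plus strand): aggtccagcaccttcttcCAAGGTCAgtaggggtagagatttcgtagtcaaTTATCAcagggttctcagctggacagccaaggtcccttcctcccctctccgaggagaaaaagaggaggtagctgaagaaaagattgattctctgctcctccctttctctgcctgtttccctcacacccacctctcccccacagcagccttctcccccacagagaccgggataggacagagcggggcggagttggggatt
Cldn11 (chr3:31149670-31149919, plus strand): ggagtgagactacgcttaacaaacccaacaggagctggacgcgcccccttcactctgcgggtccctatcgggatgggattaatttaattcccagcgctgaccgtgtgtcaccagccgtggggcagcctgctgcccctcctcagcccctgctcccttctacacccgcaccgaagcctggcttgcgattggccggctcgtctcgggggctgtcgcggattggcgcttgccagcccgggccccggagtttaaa
Hsd3b1 (chr3:98859795-98860044, minus strand): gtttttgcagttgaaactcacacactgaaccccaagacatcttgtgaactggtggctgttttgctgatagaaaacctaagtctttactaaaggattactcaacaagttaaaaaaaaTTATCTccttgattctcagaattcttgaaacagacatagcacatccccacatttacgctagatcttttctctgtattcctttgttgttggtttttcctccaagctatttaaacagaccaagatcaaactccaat
The search covered, on both strands of the full 300-base RefSeq windows, CAAGGTCA and CAAGGCCA for NR5A1 (the steroidogenic factor of both cell types), AGATAA and TGATAA for GATA factors and ACAATGG for SOX factors. The Amhr2 window held CAAGGTCA from 232 bases before the start and, on the opposite strand, TGATAA from 199 bases before it. The Hsd3b1 window held AGATAA on the opposite strand from 134 bases before the start, and the Cldn11 window held none of the 5 words. Windows were also searched for Insl3 and, at 2 starts, for Cyp11a1, and none of these words was in them. Among all 32851 promoter windows of the table, 1.56% held CAAGGTCA, 2.40% CAAGGCCA, 11.2% AGATAA, 9.05% TGATAA and 3.66% ACAATGG. A match of letters is a description of the window and does not show that a factor binds there.

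Per kilobase of exon, the Sertoli genes Clu, Amhr2 and Cldn11 were the strongest of the 10. Clu averaged 48.2 ± 22.4 CPM per kilobase (SD, n = 21), Amhr2 21.2 ± 9.81, Cldn11 9.42 ± 4.22 and Wt1 1.32 ± 0.710. These first 4 places kept their order from Clu through Amhr2 and Cldn11 to Wt1 in 21 of 21 libraries. Below them the order was not stable, with Insl3 at 1.07 ± 0.909, Sox9 at 0.744 ± 0.409, Cyp17a1 at 0.716 ± 0.652 and Star at 0.516 ± 0.198 CPM per kilobase. In that stretch each gene exceeded the next in 10 to 13 of 21 libraries, counting Wt1 against Insl3 (12 libraries), so neighbours did not differ beyond their spread. Hsd3b1 at 0.462 ± 0.358 and Cyp11a1 at 0.274 ± 0.237 CPM per kilobase were lowest, Star being above Hsd3b1 in 15 and Hsd3b1 above Cyp11a1 in 16 of 21 libraries. The length-scaled level of Insl3 may be understated, because 64.8% of its exonic bases (404 of 623) lie in exons of Jak3 on the same strand and the counting drops reads that fit 2 genes. Cyp11a1 shared 3.02% of its exonic bases with the noncoding gene Gm17322. Of the 31-base words of Hsd3b1, 13.02% also occurred in other genes, 5.78% in its neighbour Hsd3b6, so its reads could be lost or assigned to a copy.

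Sox9 (ENSMUSG00000000567, chr11:112782224-112787760, plus strand) encodes the transcription factor that sets Sertoli cell fate, and it was the faintest Sertoli gene. In spermatocytes, Sox9 stood at 2.41, 3.27, 3.10 and 1.19 CPM in wild-type libraries, at 2.83, 3.66 and 1.39 CPM in heterozygous ones and at 1.68, 1.56 and 1.21 CPM in null ones. In round spermatids, Sox9 stood at 5.23, 2.91 and 2.76 CPM in wild-type libraries, at 1.07, 6.65, 2.95 and 4.34 CPM in heterozygous ones and at 2.83, 2.95, 7.42 and 3.19 CPM in null ones. The 3 null spermatocyte values lay near the foot of the wild-type range, which they overlapped, while the highest library of each round spermatid group stood above every spermatocyte library. Wt1 (ENSMUSG00000016458, chr2:105126529-105173616, plus strand) encodes the zinc finger factor that maintains Sertoli identity. In spermatocytes, Wt1 stood at 6.65, 9.90, 7.81 and 3.36 CPM in wild-type libraries, at 8.56, 11.3 and 2.03 CPM in heterozygous ones and at 5.96, 4.15 and 2.33 CPM in null ones. In round spermatids, Wt1 stood at 12.9, 7.25 and 6.13 CPM in wild-type libraries, at 2.43, 13.97, 6.67 and 13.1 CPM in heterozygous ones and at 15.7, 7.95, 16.9 and 7.31 CPM in null ones. Wt1 spanned 8.36-fold across the 21 libraries, from heterozygous spermatocyte replicate 3 to null round spermatid replicate 3, and all genotype groups overlapped.

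Clu (ENSMUSG00000022037, chr14:65968483-65981547, plus strand) encodes clusterin, a chaperone that Sertoli cells secrete in bulk, and it made up most of the Sertoli signal. In spermatocytes, Clu stood at 145, 278, 152 and 104 CPM in wild-type libraries, at 201, 308 and 56.2 CPM in heterozygous ones and at 106, 109 and 60.9 CPM in null ones. In round spermatids, Clu stood at 300.4, 109 and 152 CPM in wild-type libraries, at 75.6, 237, 126 and 205 CPM in heterozygous ones and at 164, 155, 276 and 156 CPM in null ones. Its level ran from 56.2 to 308.3 CPM, and both ends were libraries of 1 group, the heterozygous spermatocytes. Cldn11 (ENSMUSG00000037625, chr3:31149920-31164324, plus strand) encodes the claudin of the Sertoli tight junction strands. In spermatocytes, Cldn11 stood at 18.7, 30.8, 17.5 and 12.1 CPM in wild-type libraries, at 19.8, 29.7 and 4.48 CPM in heterozygous ones and at 13.5, 11.97 and 6.24 CPM in null ones. In round spermatids, Cldn11 stood at 26.2, 13.3 and 15.4 CPM in wild-type libraries, at 6.34, 26.4, 12.9 and 21.5 CPM in heterozygous ones and at 25.7, 13.3, 28.1 and 15.9 CPM in null ones. Wild-type spermatocyte replicate 2 was the highest library for Cldn11 and heterozygous spermatocyte replicate 3 the lowest, a 6.88-fold span. Amhr2 (ENSMUSG00000023047, chr15:102445367-102454633, plus strand) encodes the type II receptor of anti-Müllerian hormone and is also known from Leydig cells. In spermatocytes, Amhr2 stood at 38.9, 75.7, 35.2 and 23.02 CPM in wild-type libraries, at 46.2, 69.6 and 14.2 CPM in heterozygous ones and at 24.1, 28.99 and 15.4 CPM in null ones. In round spermatids, Amhr2 stood at 71.1, 28.96 and 37.3 CPM in wild-type libraries, at 20.3, 65.7, 33.3 and 56.4 CPM in heterozygous ones and at 58.9, 37.2, 69.6 and 42.5 CPM in null ones. The same 2 libraries were its highest and lowest, and the null spermatocyte values overlapped the lowest wild-type and heterozygous libraries.

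**Figure D1:**
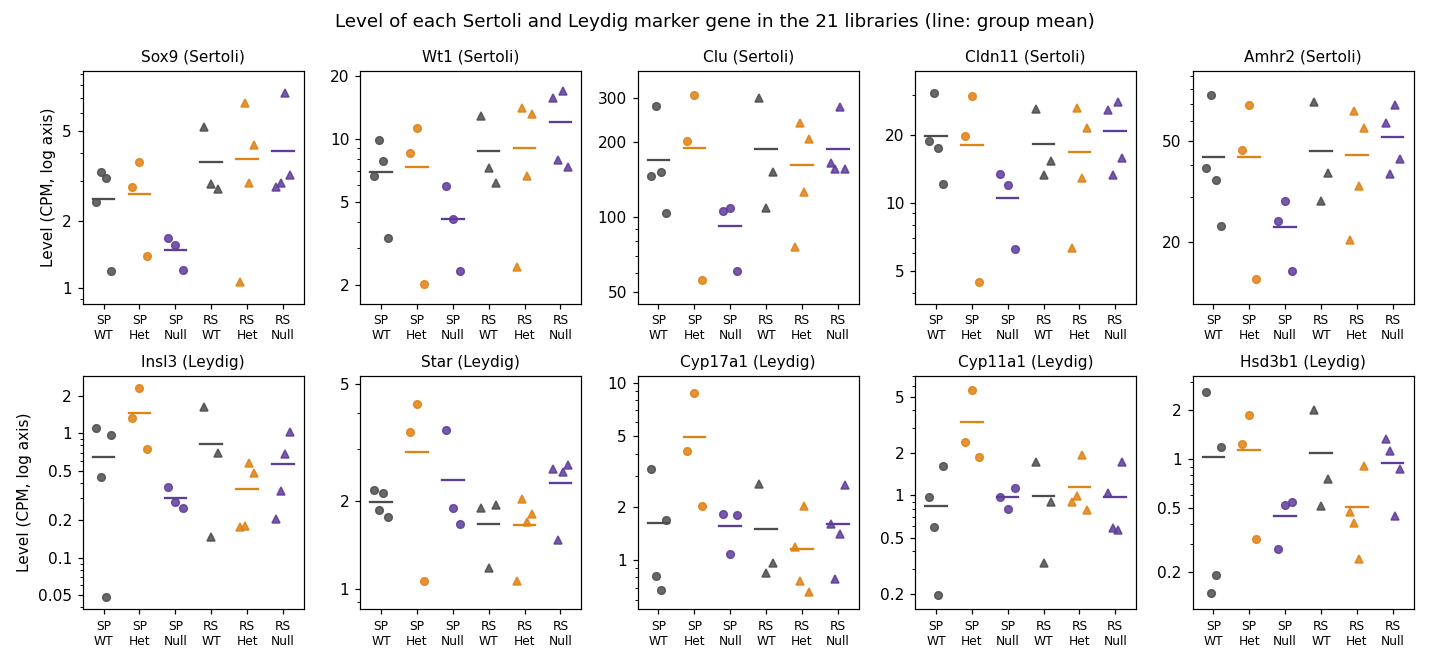
Level of each gene (CPM, log axis) in the 21 libraries, 1 point per library, circles for spermatocytes (SP) and triangles for round spermatids (RS), with a line at each group mean. The 5 Sertoli panels share one pattern of high and low libraries, with the 3 null spermatocyte libraries low and overlapping the wild type, while the Leydig panels peak in heterozygous spermatocytes for Insl3, Star, Cyp17a1 and Cyp11a1.

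The 5 Sertoli genes moved nearly in step. Over the 21 libraries the Pearson correlation of their log2 levels ranged from 0.81 (Sox9 with Cldn11) to 0.98 (Clu with Amhr2) across the 10 pairs, with a median of 0.92. The points share library and depth, and the genes share a cell type, so these coefficients describe the libraries and carry no test. Clu alone took 69.9 ± 2.51% of the summed Sertoli level (SD, n = 21), Amhr2 17.9 ± 1.39%, Cldn11 7.44 ± 0.999%, Wt1 3.38 ± 0.891% and Sox9 1.31 ± 0.343%. The sum itself ran from 78.3 to 422.6 CPM, a 5.40-fold span, which was 0.00785% to 0.0489% of all counts. Null round spermatid replicate 1 departed most from the common makeup, with Clu at 61.4%, Amhr2 at 22.0% and Wt1 at 5.88% of the sum. Set against Clu, the log2 ratio of Amhr2 had an SD of 0.15 and that of Cldn11 0.23 over the 21 libraries, against 0.39 for both Sox9 and Wt1.

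**Figure D2:**
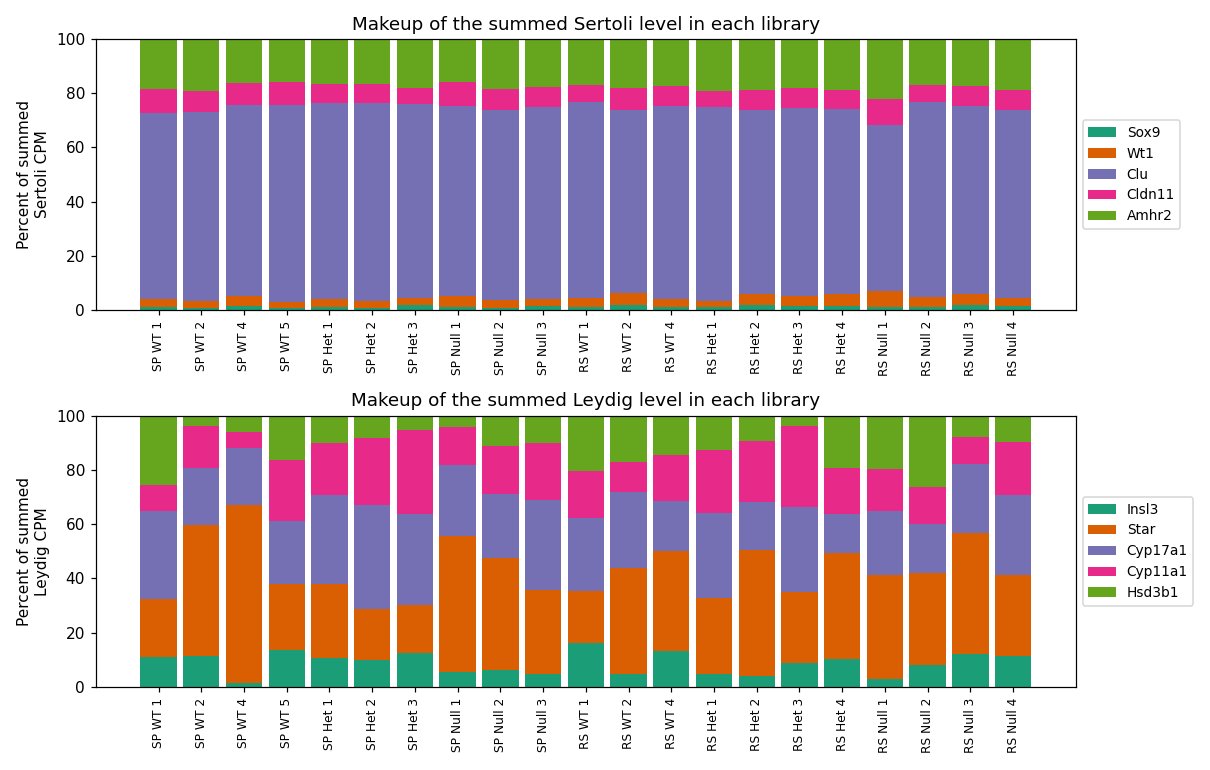
Share of each gene in the summed Sertoli level (upper panel) and in the summed Leydig level (lower panel), in percent, 1 bar per library. Clu takes 61.4% to 73.0% of the Sertoli sum in every library, whereas the share of Star in the Leydig sum runs from 17.7% to 65.7%.

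The Leydig genes were read from few counts. Across 105 values (5 genes in 21 libraries) they had 1 to 201 counts and 3173 in all, against 18 to 7074 and 104628 in all for the Sertoli genes, and 3 Leydig values rested on 3 counts or fewer. Insl3 (ENSMUSG00000079019, chr8:71689214-71690575, plus strand) encodes insulin-like factor 3, the peptide hormone of mature Leydig cells that guides testis descent. In spermatocytes, Insl3 stood at 1.11, 0.446, 0.0485 and 0.972 CPM in wild-type libraries, at 1.32, 2.31 and 0.747 CPM in heterozygous ones and at 0.373, 0.283 and 0.250 CPM in null ones. In round spermatids, Insl3 stood at 1.63, 0.147 and 0.689 CPM in wild-type libraries, at 0.178, 0.180, 0.580 and 0.482 CPM in heterozygous ones and at 0.206, 0.344, 0.685 and 1.03 CPM in null ones. The lowest Insl3 value, in wild-type spermatocyte replicate 4, was a single count, and the heterozygous spermatocyte libraries all lay above the null ones. Star (ENSMUSG00000031574, chr8:25806555-25815982, plus strand) encodes the protein that carries cholesterol into the mitochondrion, the first and rate-limiting step of steroid synthesis. In spermatocytes, Star stood at 2.17, 1.86, 2.13 and 1.76 CPM in wild-type libraries, at 3.45, 4.27 and 1.07 CPM in heterozygous ones and at 3.49, 1.89 and 1.67 CPM in null ones. In round spermatids, Star stood at 1.89, 1.18 and 1.93 CPM in wild-type libraries, at 1.07, 2.02, 1.69 and 1.81 CPM in heterozygous ones and at 2.57, 1.47, 2.50 and 2.65 CPM in null ones. Star varied least of the 5, with an SD of 0.50 on the log2 scale over the 21 libraries against 0.91 to 1.05 for the other four, and its highest library was heterozygous spermatocyte replicate 2.

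Cyp11a1 (ENSMUSG00000032323, chr9:58006411-58027023, plus strand) encodes the side-chain cleavage enzyme that turns cholesterol into pregnenolone. In spermatocytes, Cyp11a1 stood at 0.964, 0.595, 0.194 and 1.60 CPM in wild-type libraries, at 2.40, 5.62 and 1.87 CPM in heterozygous ones and at 0.978, 0.801 and 1.12 CPM in null ones. In round spermatids, Cyp11a1 stood at 1.71, 0.331 and 0.896 CPM in wild-type libraries, at 0.888, 0.988, 1.93 and 0.784 CPM in heterozygous ones and at 1.03, 0.589, 0.564 and 1.73 CPM in null ones. All 3 heterozygous spermatocyte libraries lay above all 4 wild-type and all 3 null ones, and no such separation was seen in round spermatids. Hsd3b1 (ENSMUSG00000027871, chr3:98852194-98859794, minus strand) encodes a 3-beta-hydroxysteroid dehydrogenase, which acts next in the pathway. In spermatocytes, Hsd3b1 stood at 2.60, 0.149, 0.194 and 1.19 CPM in wild-type libraries, at 1.24, 1.87 and 0.320 CPM in heterozygous ones and at 0.279, 0.519 and 0.541 CPM in null ones. In round spermatids, Hsd3b1 stood at 2.02, 0.515 and 0.758 CPM in wild-type libraries, at 0.474, 0.404, 0.242 and 0.904 CPM in heterozygous ones and at 1.34, 1.13, 0.444 and 0.866 CPM in null ones. The wild-type spermatocyte group split, with 2 libraries at or below 0.194 CPM and 2 at or above 1.19 CPM, and its range enclosed every heterozygous and null spermatocyte value. Cyp17a1 (ENSMUSG00000003555, chr19:46667165-46673172, minus strand) encodes the enzyme that leads from pregnenolone and progesterone to the androgens. In spermatocytes, Cyp17a1 stood at 3.28, 0.818, 0.679 and 1.69 CPM in wild-type libraries, at 4.11, 8.76 and 2.03 CPM in heterozygous ones and at 1.82, 1.08 and 1.79 CPM in null ones. In round spermatids, Cyp17a1 stood at 2.68, 0.846 and 0.964 CPM in wild-type libraries, at 1.18, 0.764, 2.03 and 0.663 CPM in heterozygous ones and at 1.59, 0.785, 1.41 and 2.65 CPM in null ones. Heterozygous spermatocyte replicate 2 was the highest library for Cyp17a1, and each heterozygous spermatocyte value exceeded each null one.

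The Leydig genes had lower correlations with each other. Pairwise values over the 21 libraries ranged from 0.30 (Star with Hsd3b1) to 0.84 (Cyp17a1 with Cyp11a1), with a median of 0.55 across 10 pairs. The 2 sets of genes were not compared at equal counts. Star took 34.6 ± 12.2% of the summed Leydig level (SD, n = 21), Cyp17a1 26.2 ± 6.41%, Cyp11a1 17.9 ± 6.38%, Hsd3b1 12.4 ± 6.91% and Insl3 8.76 ± 4.04%. In wild-type spermatocyte replicate 4, where the other four genes were near their lowest, Star alone made up 65.7% of the sum.

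The Sertoli and Leydig sums ranked the libraries differently. Across the 25 pairs of 1 Sertoli and 1 Leydig gene the correlation ranged from -0.09 to 0.63 with a median of 0.16, over 21 libraries. The summed Leydig level ran from 3.02 to 22.8 CPM. Heterozygous spermatocyte replicate 2 ranked 1 of the 21 libraries in both sums, with 422.6 CPM of Sertoli and 22.8 CPM of Leydig genes. Wild-type spermatocyte replicate 2, by contrast, ranked 3 in the Sertoli sum with 398.0 CPM and 18 in the Leydig sum with 3.87 CPM. Heterozygous spermatocyte replicate 3 was the lowest library of all in the Sertoli sum, at 78.3 CPM, and ranked 10 in the Leydig sum, at 6.03 CPM. The Sertoli sum was thus 12.99 times the Leydig sum in one library and 103 times in another, with a median of 34.1. In the 3 libraries that the labels call outliers both sums lay inside the range of the other libraries of their group, on a scale set over all 24 libraries.

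**Figure D3:**
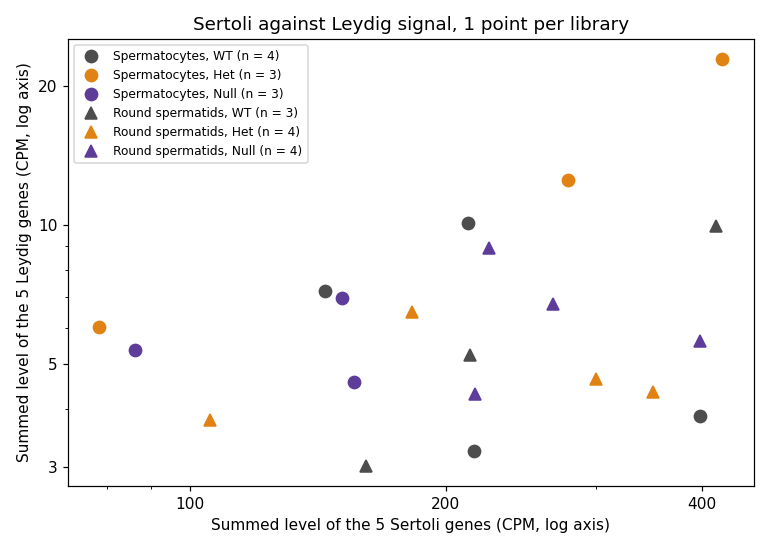
Summed level of the 5 Sertoli genes against that of the 5 Leydig genes (CPM, both axes logarithmic), 1 point per library. The libraries spread from 78.3 to 422.6 CPM across and from 3.02 to 22.8 CPM upward without falling on one line, and the heterozygous spermatocyte library at the upper right is highest in both.

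Other genes followed the Sertoli pattern closely. Among 16056 genes with a mean of at least 1 CPM, the 5 whose log2 level was most like the mean of the Sertoli genes over the 21 libraries were Adora1 (the adenosine A1 receptor, r = 0.99), Sparc (a secreted matrix glycoprotein, r = 0.98), Tmem184a (r = 0.98), Pfkl (a phosphofructokinase of glycolysis, r = 0.97) and Ddit4 (a stress-induced inhibitor of mTORC1, r = 0.97). For the Leydig genes they were Lcn2 (lipocalin 2, r = 0.85), Akr1cl (an aldo-keto reductase, r = 0.84), Hsd3b6 (the copy of Hsd3b1, r = 0.84), Fabp3 (a fatty acid binding protein, r = 0.83) and Agt (angiotensinogen, r = 0.78). Hsd3b6 shares sequence with Hsd3b1, one of the genes it was compared with. These likenesses are descriptions over 21 libraries that share depth and preparation.

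The labels do not say which libraries share a cell preparation, and the p-values given here measure only the spread between these libraries, which may be technical. Between the 2 fractions, in the edgeR fit without a block, Sox9 was the only gene of the 10 that passed the threshold, an adjusted p under 0.05 with a log2 fold change above 0.5 in size. It rose from 2.23 ± 0.936 CPM (n = 10, SD) in spermatocytes to 3.84 ± 1.89 CPM (n = 11, SD) in round spermatids, 1.81-fold in a fit that weighs the 3 genotypes equally (log2 fold change 0.85, SE 0.28, edgeR adjusted p = 0.0175). The group means were higher in round spermatids for each genotype, with wild-type means of 2.49 and 3.63 CPM, heterozygous means of 2.63 and 3.75 CPM and null means of 1.48 and 4.10 CPM, although single libraries overlapped. The threshold was passed by 27.6% of all 20404 genes tested, 15.9% higher and 11.7% lower in round spermatids, so that 1 of 10 members is below the background. At an unadjusted p under 0.05 were 3 members (Sox9, Wt1 and Cyp17a1) and 48.7% of all genes. With DESeq2, 2 of the 10 passed, Sox9 and Cyp17a1, against 28.7% of all genes given an adjusted p. With neighbouring library numbers as a block Sox9 and Wt1 passed (25.3% of all genes), as they did with library number as a linear term (27.9%). Without the filter on low counts Sox9, Wt1 and Cyp17a1 passed, against 16.6% of all genes.

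All 5 Sertoli genes had positive and all 5 Leydig genes negative log2 fold changes in this comparison. Wt1 stood at 6.20 ± 3.21 CPM (n = 10, SD) in spermatocytes and 10.03 ± 4.66 CPM (n = 11, SD) in round spermatids (0.73, SE 0.31, edgeR adjusted p = 0.0609), which missed the threshold. Wt1 passed it in 3 of 6 alternative fits, with neighbouring library numbers as a block (adjusted p = 0.0479), with library number as a linear term (0.0462) and without the filter on low counts (0.00221), all by edgeR. Amhr2 (0.43, SE 0.26), Clu (0.31, SE 0.26) and Cldn11 (0.26, SE 0.28) had smaller log2 fold changes, and their levels overlapped widely. Cyp17a1 stood at 2.61 ± 2.41 CPM (n = 10, SD) in spermatocytes and 1.42 ± 0.742 CPM (n = 11, SD) in round spermatids (-0.73, SE 0.32, edgeR adjusted p = 0.0776). Cyp11a1 (-0.45, SE 0.33), Star (-0.37, SE 0.21), Insl3 (-0.28, SE 0.43) and Hsd3b1 (-0.04, SE 0.42) did not pass. The median was 0.43 for the Sertoli and -0.37 for the Leydig genes, against -0.02 over all genes tested. The sign for Hsd3b1 depended on single libraries (-0.31 to 0.26 when each was left out).

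In the 9 cases in which a spermatocyte and a round spermatid library of the same genotype carry neighbouring library numbers, the Sertoli sum was higher in round spermatids in 7 and the Leydig sum in 3. The labels do not say that such libraries come from the same mice. As a share of all counts, without the TMM factor, the Sertoli sums of the fractions lay closer together, at 0.0234% in spermatocytes and 0.0241% in round spermatids. On the TMM scale they were 214 ± 119 CPM (n = 10, SD) in spermatocytes and 258 ± 98.95 CPM (n = 11, SD) in round spermatids.

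Markers of other somatic cells also differed between the fractions. Among the macrophage markers 8 of 10 were called higher in round spermatids, with Apoe the most abundant (7.37 CPM in spermatocytes, 28.8 CPM in round spermatids), and the summed level was 11.3 to 32.7 CPM in spermatocytes and 38.8 to 92.5 CPM in round spermatids. Of the peritubular myoid markers 4 of 7 tested were called higher, with Actg2 the most abundant at 317.8 CPM on average. The next of that list, Myl9, averaged 5.88 CPM. Of the endothelial markers 2 of 6 tested were called higher (Vwf most abundant, 9.96 CPM). Of 5 erythrocyte markers 3 were tested and all 3 called higher, with Alas2 most abundant at 4.26 CPM and the next, Hbb-bs, at 0.43 CPM. Over all genes tested 15.9% were called higher. Of 8 markers of spermatogonia, the mitotic germ cells, 8 had positive log2 fold changes (median 0.45), with 2 called higher and 4 at an unadjusted p under 0.05. The part of all these cells in the result for Sox9 was not tested.

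Among 20 further Sertoli genes, 19 were tested between the fractions, and 18 had a positive log2 fold change, of which 7 were called higher and 0 lower, with a median of 0.53. The 2 most abundant were Aard, at 24.9 CPM in spermatocytes and 55.8 CPM in round spermatids (log2 fold change 1.19, edgeR adjusted p = 0.00150), and Cst9, a cystatin, at 22.5 and 32.8 CPM (0.59, edgeR adjusted p = 0.0624). Of 4 regulators that Sertoli and Leydig cells share, 2 were called higher, Nr5a1 (0.97) and Gata4 (1.06), which are named after their values were seen. Among 20 further Leydig genes 14 were tested, with 2 called higher and 1 lower. The 2 called higher were also the most abundant of that list, Scarb1, the lipoprotein receptor that brings in cholesterol (46.7 and 68.2 CPM, 0.53), and Nr4a1, an orphan nuclear receptor (34.8 and 60.5 CPM, 0.77). The one called lower was Fdx1, the electron carrier of side-chain cleavage (-0.61), named after its value was seen.

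The comparison of null with wild-type spermatocytes asks what loss of the Argonautes changes during meiosis. Of the 10 genes 0 were called by edgeR or by DESeq2, and 0 had an unadjusted p under 0.05. By edgeR 0.0411% of all 19450 genes were called and by DESeq2 17.6% of those given an adjusted p, while 30.4% had an unadjusted p under 0.05. All 5 Sertoli genes had lower means in the null, by 1.63-fold to 1.86-fold in the fit. Clu stood at 91.96 ± 26.9 CPM (n = 3, SD) against 170.0 ± 75.2 CPM (n = 4, SD) (log2 fold change -0.86, SE 0.46, edgeR adjusted p = 0.215), and Amhr2 at 22.8 ± 6.90 CPM (n = 3, SD) against 43.2 ± 22.7 CPM (n = 4, SD) (-0.90, SE 0.47, edgeR adjusted p = 0.212). Cldn11 (-0.88, SE 0.50), Sox9 (-0.71, SE 0.41) and Wt1 (-0.70, SE 0.51) had log2 fold changes of similar size. The median of the 5 was -0.86 against -0.03 over all genes, but the 5 genes moved together from library to library and are not independent observations. The summed Sertoli level was 131 ± 38.9 CPM (n = 3, SD) in the null and 242 ± 109 CPM (n = 4, SD) in the wild type, and 2 of 3 null libraries lay inside the wild-type range.

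The Leydig genes showed no common direction in this comparison. Star (0.27, SE 0.43) and Cyp11a1 (0.17, SE 0.58) had positive log2 fold changes and Cyp17a1 (-0.05, SE 0.57), Insl3 (-1.11, SE 0.73) and Hsd3b1 (-1.23, SE 0.84) negative ones, with adjusted p from 0.306 to 0.957 (edgeR). The signs of Star, Cyp17a1 and Cyp11a1 changed when single libraries were left out, and without wild-type replicate 1 Hsd3b1 stood at -0.30. Of the further genes of these cells, 15 of 19 Sertoli and 10 of 14 Leydig genes had negative log2 fold changes. In each of these lists 4 had an unadjusted p under 0.05, and 0 were called. Among the germ cell markers, 9 of 10 of spermatocytes had negative log2 fold changes (median -0.85) and 8 of 10 of spermatids positive ones (median 0.22), with 0 called. At an unadjusted p under 0.05 were 8 of the 10 spermatocyte and 4 of the 10 spermatid markers, against 30.4% of all genes. Without the filter on low counts, edgeR called 3 members, Clu, Cldn11 and Amhr2, against 7.61% of all genes, whereas with library number as a linear term 0 members were called. With that term the log2 fold changes of Clu (-0.095), Cldn11 (-0.064) and Amhr2 (-0.019) were close to 0, and those of Sox9 (0.093) and Wt1 (0.29) were positive. Of the spermatogonial markers 6 of 8 had positive log2 fold changes (median 0.46), as did 4 of 6 tested macrophage markers (median 0.68). In these lists 0 were called, with 3 spermatogonial and 4 macrophage markers at an unadjusted p under 0.05. The part of these cells in the Sertoli values was not tested.

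For heterozygous against wild-type spermatocytes the highest log2 fold changes were those of Leydig genes. Again 0 of 10 genes were called by edgeR, against 0.0257% of all genes, with 2 at an unadjusted p under 0.05 (24.6% of all genes), and DESeq2 called those 2, Cyp17a1 and Cyp11a1, as it did 7.83% of all genes given an adjusted p (Insl3 and Hsd3b1 were given none). Without the filter on low counts edgeR called the same 2, against 4.3% of all genes. Cyp11a1 stood at 3.30 ± 2.03 CPM (n = 3, SD) in the heterozygote and 0.838 ± 0.597 CPM (n = 4, SD) in the wild type, 3.89-fold in the fit (log2 fold change 1.96, SE 0.54, edgeR adjusted p = 0.124, DESeq2 adjusted p = 0.0243). It was the 1 member of 10 whose groups did not overlap, which 6.44% of all genes did in the higher direction. Cyp17a1 stood at 4.96 ± 3.45 CPM (n = 3, SD) and 1.62 ± 1.19 CPM (n = 4, SD) (1.64, SE 0.55, edgeR adjusted p = 0.129, DESeq2 adjusted p = 0.0436), with 1 heterozygous library inside the wild-type range. Insl3 (1.18, SE 0.63), Star (0.62, SE 0.42) and Hsd3b1 (0.16, SE 0.76) had smaller positive log2 fold changes.

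Without wild-type replicate 5, Cyp11a1 was called by edgeR as well (log2 fold change 2.54, adjusted p = 0.0217), and in that fit 2966 of all genes were called in place of 5. Without heterozygous replicate 2 the log2 fold changes were 1.33 for Cyp11a1 and 0.94 for Cyp17a1, and without wild-type replicate 1 they were 2.24 for Cyp17a1 and 1.09 for Hsd3b1. The Sertoli genes had smaller values. Their log2 fold changes were 0.15 for Sox9, 0.14 for Wt1, 0.20 for Clu, -0.08 for Cldn11 and 0.06 for Amhr2, each with an SE of 0.40 to 0.50, and all 5 changed sign when single libraries were left out. Among the further Leydig genes 11 of 14 had positive log2 fold changes and 0 were called. Library numbers ran from 2 to 24 in heterozygous and from 30 to 78 in wild-type spermatocytes, so that genotype and whatever the number marks cannot be told apart here. With the number as a linear term, the log2 fold changes of the 5 Sertoli genes ran from -1.04 to -0.65 and 0 members were called. Spermatocyte markers were again lower in 9 of 10 cases by log2 fold change (median -0.82, 0 called). Markers of spermatogonia, the mitotic germ cells, had positive log2 fold changes in 7 of 8 cases (median 0.87, 0 called, 4 at an unadjusted p under 0.05), and their summed level was 46.9 to 78.3 CPM in heterozygous and 36.8 to 47.2 CPM in wild-type libraries. All 6 macrophage markers tested, of 10, had positive log2 fold changes (median 0.48, 0 called, 1 at an unadjusted p under 0.05), with sums of 11.3 to 32.7 CPM and 14.1 to 20.4 CPM. The part of these cells in the values of the 10 genes was not tested.

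For null against heterozygous spermatocytes all 10 genes had a negative log2 fold change. Of the 10 genes 0 were called by edgeR (adjusted p = 0.974 for each) or DESeq2, against 0.00514% and 0.0206% of all genes, and 4 (Clu, Insl3, Cyp17a1 and Cyp11a1) had an unadjusted p under 0.05, as did 3.74% of all genes. Insl3 stood at 0.302 ± 0.0635 CPM (n = 3, SD) against 1.46 ± 0.791 CPM (n = 3, SD) (log2 fold change -2.29, SE 0.74), Cyp11a1 had a log2 fold change of -1.79 (SE 0.59) and Cyp17a1 one of -1.69 (SE 0.60). For these 3 genes the groups did not overlap, as for 3.57% of all genes in the lower direction. Without heterozygous replicate 2 the log2 fold changes were -1.16 for Cyp11a1 and -0.995 for Cyp17a1. Hsd3b1 (-1.39, SE 0.88) and Star (-0.35, SE 0.45) overlapped. The Sertoli genes had log2 fold changes of -1.06 (Clu), -0.96 (Amhr2), -0.86 (Sox9), -0.85 (Wt1) and -0.80 (Cldn11), with SEs of 0.43 to 0.54. Without the filter on low counts edgeR called Clu, against 0.0871% of all genes. Of the further genes of these cells 18 of 19 Sertoli and 14 of 14 Leydig genes had negative log2 fold changes, with 2 and 5 at an unadjusted p under 0.05, and so did 6 of 8 spermatogonial markers (median -0.52), with 0 called in these lists. Over all genes 42.7% had positive log2 fold changes. The part of the spermatogonia in the values of the 10 genes was not tested.

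The 2 groups also shared no library numbers, which ran from 2 to 24 in heterozygous and from 54 to 90 in null spermatocytes, so genotype and whatever the number marks cannot be told apart in this comparison. With the number as a linear term, the log2 fold changes of all 5 Sertoli genes and of Star turned positive (0.57 to 1.28). Wild-type numbers overlapped those of the null libraries and not those of the heterozygous ones. In libraries numbered up to 60, the Sertoli sums were 212.2 to 398.0 CPM in 3 wild-type, 78.3 to 422.6 CPM in 3 heterozygous and 150.9 CPM in 1 null library. Above 60 they were 144.0 CPM in 1 wild-type and 86.1 and 155.9 CPM in 2 null libraries.

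**Figure D4:**
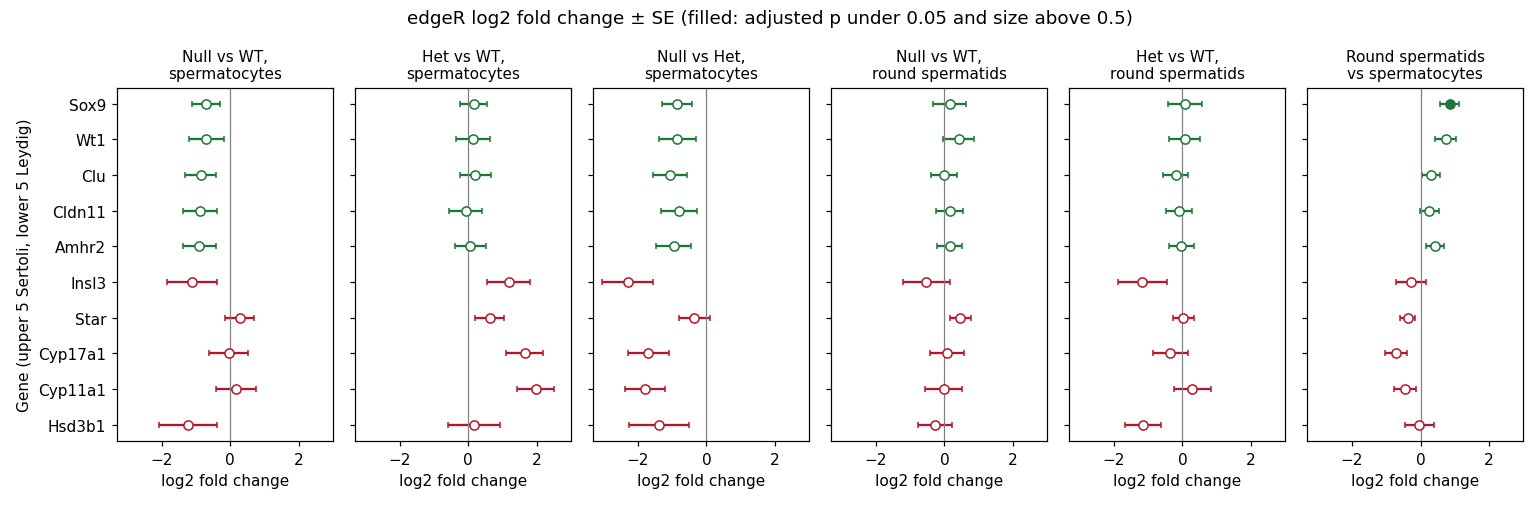
Log2 fold change of each gene (edgeR) in 6 comparisons, with a standard error derived from the test statistic. Sertoli genes are in green and Leydig genes in red, with a filled point where the gene passed the threshold. Sox9 between the fractions is the 1 filled point, at 0.85, and in spermatocytes the Sertoli genes lie left of 0 for null against wild type while Cyp17a1 and Cyp11a1 lie right of it for heterozygote against wild type.

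In round spermatids the genotype groups overlapped for all 10 genes. For null against wild type 0 of the 10 genes were called by edgeR, which called 0.0518% of all 19310 genes. DESeq2 gave an adjusted p to the 5 Sertoli genes and to none of the 5 Leydig genes, and called 0 of these 5 and 5.13% of all genes given one. By edgeR 0 of the 10 had an unadjusted p under 0.05. Log2 fold changes ran from -0.53 (Insl3, SE 0.68) to 0.46 (Star, SE 0.31), with Wt1 at 0.41 (SE 0.46) and Clu, the most abundant, at -0.01 (SE 0.37). For heterozygote against wild type 0 were called by either tool against 0.0207% (edgeR) and 0.0363% (DESeq2) of all genes, and 1 had an unadjusted p under 0.05, as did 8.88% of all genes. This was Hsd3b1, with 0.506 ± 0.283 CPM (n = 4, SD) against 1.10 ± 0.809 CPM (n = 3, SD) (-1.14, SE 0.53, edgeR adjusted p = 0.560). The other values ran from -1.17 (Insl3, SE 0.72) to 0.28 (Cyp11a1, SE 0.54). Without wild-type replicate 1 Hsd3b1 stood at -0.35, Insl3 at -0.090 and Cyp11a1 at 1.00, and without it Insl3 for null against wild type stood at 0.58. For null against heterozygote 0 were called by either tool against 0.00518% (edgeR) and 0.112% (DESeq2, which gave Insl3 no adjusted p) of all genes, 0 had an unadjusted p under 0.05, and values ran from -0.30 (Cyp11a1) to 0.87 (Hsd3b1). Among the further Sertoli and Leydig genes 0 were called in these 3 comparisons. Macrophage markers had positive log2 fold changes in 9 of 10 cases for null against wild type (median 1.03, 6 at an unadjusted p under 0.05) and in 7 of 10 for heterozygote against wild type (median 0.53, 4 at an unadjusted p under 0.05), with 0 called. Their summed level was 51.8 to 85.7 CPM in null, 38.8 to 92.5 CPM in heterozygous and 39.9 to 58.0 CPM in wild-type libraries, and their part in the values of the 10 genes was not tested.

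For null against wild type the Sertoli genes had a median log2 fold change of -0.86 in spermatocytes and 0.16 in round spermatids, and the difference between the fractions was tested as an interaction. The change from wild type to null was more positive in round spermatids than in spermatocytes for all 5 Sertoli genes, by 0.89 to 1.18 on the log2 scale, the latter for Wt1 (SE 0.76). For the Leydig genes it ran from -0.16 (Cyp11a1, SE 0.83) to 1.00. None of the 10 was called by edgeR (adjusted p from 0.807 to 0.977) or DESeq2, none had an unadjusted p under 0.05, and 0% of all 20404 genes were called by either tool, while 5.95% had an unadjusted p under 0.05. Of the macrophage markers 5 of 10 had a positive interaction (median -0.22, 0 called). So did 17 of 19 further Sertoli genes (median 0.98) and 8 of 10 spermatocyte markers (median 0.46), against 54.7% of all genes. In each of these 2 lists 3 had an unadjusted p under 0.05 and 0 were called.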

How the data were processed

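The authors trimmed reads of directional poly(A) libraries with Trim Galore, aligned them with STAR and deposited raw counts per gene for 55536 Ensembl genes, unnormalized. All identifiers matched GENCODE M21 (GRCm38). Left out were the 3 libraries labelled outliers. Counts were tested as deposited with edgeR 4.0.16 in R 4.3.3 (TMM, quasi-likelihood, Benjamini-Hochberg over all genes), separately for spermatocytes (19450 genes) and round spermatids (19310), and jointly for the fractions and the interaction (20404). Genes needed 10 counts in 3 libraries, and a call an adjusted p under 0.05 with a log2 fold change above 0.5 in size. The edgeR test reports no SE, so each SE given is the size of the log2 fold change divided by the square root of the F statistic. Alternatives were DESeq2 1.42.0, RLE scaling, no filter, the labelled outliers put back, only the compared groups, library number as a term, replicate blocks and each library left out. Named beside the 10 genes were the 2 most abundant further Sertoli and Leydig genes, the most abundant gene of each other somatic list, and the 5 genes most alike. A few others were named after their values were seen. The members and lists were chosen with earlier results of these data known. Promoter windows and their sequences came from RefSeq. No sequence is given for Sox9, Wt1, Clu, Star and Cyp17a1.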

Additional observations from a re-analysis of the deposited data

Results flagged for a closer look

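In the 3 groups with 4 libraries, the extreme value of each of the 10 genes and of the 2 sums was set against the others by Dixon's test at the 95% level, 36 tests of which 3 passed. Chance passes about 1 in 20 such tests, but the Sertoli genes varied together, so the tests are not independent. All 3 were in null round spermatids. Sox9 stood at 7.42 CPM in replicate 3 against 2.83 to 3.19 CPM in the other libraries. Clu stood at 276 CPM in the same replicate 3 against 155 to 164 CPM. Star stood at 1.47 CPM in replicate 2 against 2.50 to 2.65 CPM.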

How the results depend on the processing

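Alternative values were tallied for 51 log2 fold changes of single members, which leaves out most of those for genotypes in round spermatids and for the interaction. Among these 847 values, 763 kept direction and side of the threshold, 25 newly passed it, 59 changed sign and 0 lost a call. Sox9 between the fractions was called in 6 of 6 alternatives (adjusted p 0.000922 to 0.0397, edgeR or DESeq2) and without each of the 21 libraries (edgeR adjusted p at most 0.0496). DESeq2 called 2 members for heterozygous against wild-type spermatocytes (7.83% of all genes) and 2 between the fractions (28.7%). Without the filter the members called were 3 for null against wild-type (7.61% of all genes), 2 for heterozygous against wild-type (4.3%) and 1 for null against heterozygous spermatocytes (Clu, 0.0871%), and 3 between the fractions (16.6%). The whole table was less stable, with 8 genes called for null against wild-type spermatocytes against 3026 with DESeq2, 1303 with only the compared groups and 4526 without wild-type replicate 5. For heterozygous against wild-type spermatocytes DESeq2 called 1228 in place of 5, and for null against wild-type round spermatids 702 in place of 10. The cause was not tested.

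With library number as a term, 2 members (Sox9 and Wt1) were called between the fractions, and signs turned. For null against wild-type spermatocytes Sox9 was 0.093, Wt1 0.29, Cyp17a1 0.39 and Cyp11a1 -0.0070, while Clu (-0.095), Cldn11 (-0.064) and Amhr2 (-0.019) came close to 0. For heterozygous against wild-type spermatocytes Sox9 was -0.65, Wt1 -0.99, Clu -0.67, Amhr2 -0.84, Star -0.062 and Hsd3b1 -0.10. For null against heterozygous spermatocytes Sox9 was 0.74, Wt1 1.28, Clu 0.57, Cldn11 0.98, Amhr2 0.82 and Star 0.80. With the labelled outliers back, Cyp17a1 was 0.16 (null against wild-type spermatocytes), Sox9 -0.019 (heterozygous against wild-type spermatocytes) and Clu 0.047 (null against wild-type round spermatids). The last value was 0.000810 with DESeq2, 0.000927 with RLE scaling and 0.035 without the filter.

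Replicate numbers were not taken to pair the samples, since that required a correlation of deviations above 0.1 in every pair, which 4 of 7 pairs in spermatocytes (at most 0.168) and 0 of 10 in round spermatids reached. With the replicate block 0 members were called for any genotype comparison, 687 genes of the whole table for null against wild-type spermatocytes, and Amhr2 for heterozygous against wild-type spermatocytes was -0.086. Neighbouring library numbers, taken as a block between the fractions (8 of 9 pairs above 0.1), gave 2 called members, Sox9 and Wt1.

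When each library was left out in turn, log2 fold changes for null against wild-type spermatocytes ran from -0.17 to 0.47 (Star), -0.25 to 0.54 (Cyp17a1) and -0.11 to 0.75 (Cyp11a1), with Hsd3b1 at -1.55 to -0.30. For heterozygous against wild-type spermatocytes 0 to 1 members were called, and values ran from -0.17 to 0.44 (Sox9), -0.32 to 0.57 (Wt1), -0.36 to 0.62 (Clu), -0.65 to 0.37 (Cldn11), -0.47 to 0.48 (Amhr2) and -0.38 to 1.09 (Hsd3b1). Star ran from -0.79 to 0.021 for null against heterozygous spermatocytes. In round spermatids Clu ran from -0.28 to 0.50 and Insl3 from -1.06 to 0.58 for null against wild type, and Cyp11a1 from -0.17 to 1.00 for heterozygous against wild type (Insl3 -1.70 to -0.090, Hsd3b1 -1.54 to -0.35) and -0.76 to 0.10 for null against heterozygous. Between the fractions 1 to 3 members were called (Wt1, Cyp17a1 and Star were the ones gained) and Hsd3b1 ran from -0.31 to 0.26. Cyp11a1 in the interaction ran from -0.74 to 0.60. Depth limited the Leydig genes most, with 3 of 105 values at 3 counts or fewer.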
